A study of Homo sapiens with 10 samples.

Results

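The genes described here encode the replication-independent histone variants, which are made throughout the cell cycle and not only during DNA synthesis. Their RNA and ribosome occupancy were followed in BJ fibroblasts in which p53 was activated with nutlin-3a. The members were given by a fixed list of gene symbols, of which 8 are considered here: H2AFX (H2A.X), H2AFZ and H2AFV (the H2A.Z pair), H2AFY (macroH2A1), H2AFJ (H2A.J), H3F3A and H3F3B (the H3.3 pair) and H1FX (the linker histone H1.X). Of these, 7 were in both tables of expression values and H2AFJ was not analysed here. The tables hold 13279 genes by RNA-Seq and 11337 by Ribo-Seq, with 11258 in both.

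BJ cells are human fibroblasts made immortal by expressing hTERT, the catalytic subunit of telomerase, and all 10 libraries came from this background. The control was untreated, and the other cells had received nutlin-3a, which frees p53 from its inhibitor MDM2, for 2, 4, 6 or 19 h. Each time point had 1 RNA-Seq library of poly(A) RNA and 1 Ribo-Seq library, in which the fragments of mRNA covered by ribosomes are sequenced. With 1 library per group no difference has a replicate check, and the errors given below are counting errors only.

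Canonical histones are made in S phase from mRNAs that end in a stem-loop and carry no poly(A) tail. The variant genes lie outside the large histone clusters, most of them give polyadenylated mRNAs, and their proteins can be placed into chromatin at any time. H2A.Z marks nucleosomes around transcription start sites, H2A.X is phosphorylated next to DNA breaks, macroH2A carries a large extra domain and is frequent in silent chromatin, and H3.3 is placed where genes are transcribed. H2AFX is an exception in its mRNA, since a polyadenylated form and a stem-loop form are both known, and only the former is captured by poly(A) selection. The part of this selection in the RNA values was not tested.

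The promoters of H2AFX, H2AFZ and H2AFV are shown because the first pair gave the largest falls in RNA, while H2AFV encodes a protein nearly the same as that of H2AFZ and fell less. They are RefSeq sequences of GRCh38.p14 under the current symbols H2AX, H2AZ1 and H2AZ2. They run from upstream of the annotated start to just past it, 5′ to 3′ on the coding strand, which is the minus strand in each case. Their positions are chr11:119095416-119095715, chr4:99950226-99950525 and chr7:44848038-44848337. Capitals mark the CCAAT box (CCAAT or ATTGG) and the cell-cycle homology region, CHR (TTTGAA or TTCAAA), an element known from promoters of cell-cycle genes.
H2AX promoter: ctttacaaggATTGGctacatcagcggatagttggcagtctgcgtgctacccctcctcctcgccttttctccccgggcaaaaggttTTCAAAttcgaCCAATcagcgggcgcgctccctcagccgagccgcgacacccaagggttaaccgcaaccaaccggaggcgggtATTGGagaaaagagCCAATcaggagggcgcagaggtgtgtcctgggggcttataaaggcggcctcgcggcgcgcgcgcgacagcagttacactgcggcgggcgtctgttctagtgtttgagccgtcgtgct
H2AZ1 promoter: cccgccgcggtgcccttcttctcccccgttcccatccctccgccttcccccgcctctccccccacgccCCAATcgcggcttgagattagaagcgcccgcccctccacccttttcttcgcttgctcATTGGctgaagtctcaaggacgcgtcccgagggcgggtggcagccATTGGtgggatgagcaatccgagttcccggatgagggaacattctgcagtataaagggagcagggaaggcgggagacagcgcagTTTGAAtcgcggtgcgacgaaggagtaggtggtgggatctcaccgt
H2AZ2 promoter: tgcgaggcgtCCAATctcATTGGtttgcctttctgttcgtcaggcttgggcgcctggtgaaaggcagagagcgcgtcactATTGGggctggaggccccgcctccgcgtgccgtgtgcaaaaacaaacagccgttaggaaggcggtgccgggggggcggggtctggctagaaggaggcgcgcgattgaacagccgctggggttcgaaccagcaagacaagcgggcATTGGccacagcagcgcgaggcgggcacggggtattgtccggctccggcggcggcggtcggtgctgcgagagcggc

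The letters of the CHR were found once in the H2AX window and once in the H2AZ1 window, and in no window of the other listed variants. They occurred in 12.4% of 22199 promoters in the table. CCAAT boxes numbered 4 in H2AX, 3 in H2AZ1 and 4 in H2AZ2, and 34.7% of all promoters held at least 1. Of the other variants H3F3B also had 4, H2AFJ had 3, a window of H2AFY had 2 and windows of H3F3A had at most 1, while H1FX had 0. The E2F letters TTCCCGC, in which each base of the first CC could also be G, were present in 16.1% of promoters. They were in none of the H2AX, H2AZ1 and H2AZ2 windows, but were found in H1FX and in a window of H3F3A. TATAAA, which 9.47% of promoters held, was present in H2AX, H2AZ1, H3-3B (H3F3B) and H1-10 (H1FX) at a similar distance from the start. Each motif was searched on both strands, and none of the marked letters overlap. All 8 genes had a promoter in the table. These matches are a description of letters and not of bound factors.

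The labelled cell type was checked against markers. All 10 fibroblast markers on the list were well above the filter, with RNA levels in the control from 55.5 FPKM for PDGFRB to 4194 FPKM for VIM. CDH1, PTPRC, CD79A and VWF, which define epithelial, blood and endothelial cells, were at or below 0.246 FPKM in every RNA-Seq library. The keratins KRT18 and KRT8, on the same list for epithelial cells, were not low, at 293 and 12.4 FPKM of RNA in the control and 243 and 14.2 FPKM at 19 h. The other 4 markers of that list were not analysed here. RNA of CDKN1A, the p53 target p21, rose from 68.6 to 1316 FPKM at 19 h, and that of MKI67, a marker of cycling cells, fell from 77.6 to 0.706 FPKM. The files gave 23845600 to 27554300 reads per RNA-Seq library and 7744900 to 14460700 per Ribo-Seq library, with the 19 h Ribo-Seq library the smallest.

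FPKM is the number of fragments scaled to transcript length and to the size of the library. The 7 variants were all abundant, from 43.7 to 443 FPKM of RNA in the control. To be tested, a gene had to reach 5 FPKM in some RNA-Seq library and in some Ribo-Seq library. All 7 did, as did 7015 genes in all. Values below 1 FPKM were set to 1 before log2 ratios were taken. A change was called where it passed a fixed multiple of the standard deviation of genes of similar level, a cut-off that widens where genes of that level vary more.

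At 19 h the RNA of 4 of the 7 variants was called lower, those of H2AFX, H2AFZ, H2AFV and H1FX, and none was called higher. Among all 7015 tested genes 5.10% were called lower. The median change of the 7 variants was -1.24 on the log2 scale, beside -0.07 over all tested genes. In these bulk libraries, a lower level in every cell and fewer cells that express a gene cannot be told apart. With a fixed 2-fold cut-off, 4 of the 7 were lower, beside 7.10% of tested genes. At 6 h, 3 were lower (H2AFX, H2AFZ and H1FX) beside 4.78% of tested genes. At 4 h only H2AFX was called, beside 2.88%, and no variant passed 2-fold, beside 0.684%. At 2 h none was called, beside 0.741%.

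**Figure D1:**
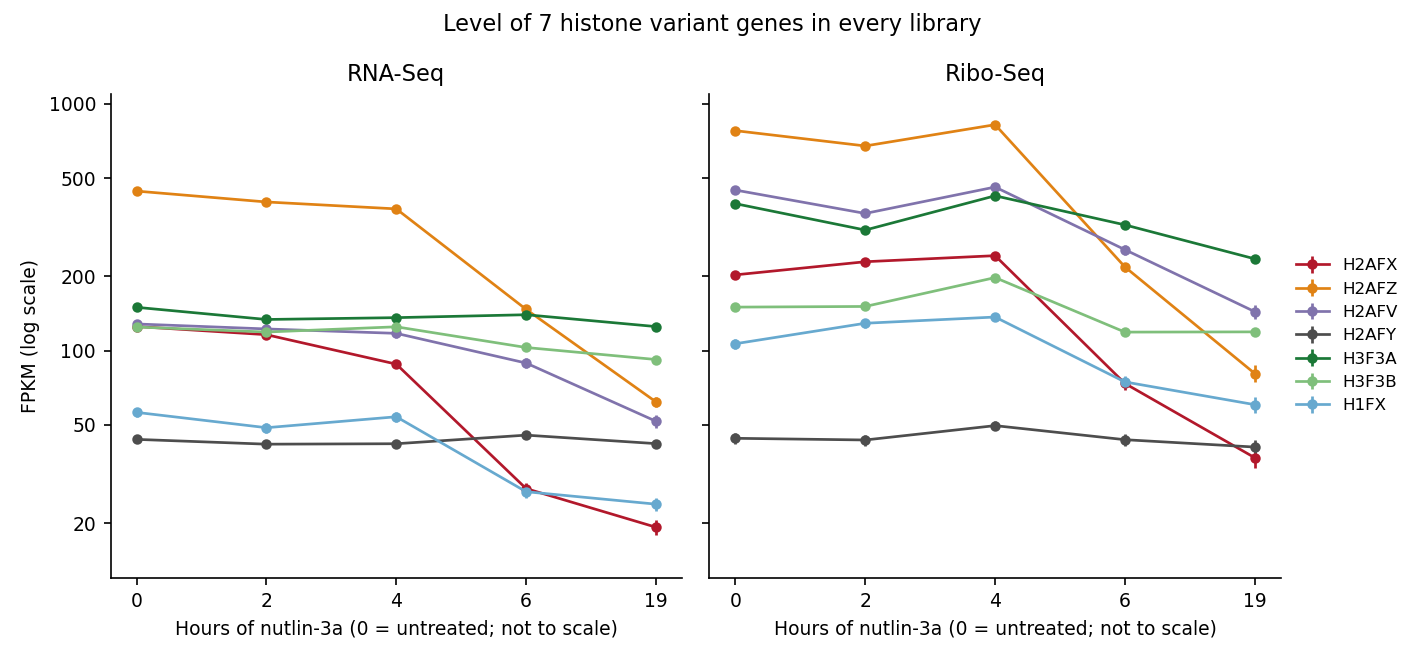
Level of the 7 variants in each library, in FPKM on a log axis, against hours of nutlin-3a (equally spaced, 0 is untreated), with RNA-Seq on the left and Ribo-Seq on the right. Points are single libraries, bars are 95% counting intervals and are mostly smaller than the points. In RNA-Seq H2AFZ starts as the highest at 443 FPKM and H2AFX ends as the lowest at 19.2 FPKM, while H2AFY stays between 41.8 and 45.4 FPKM.

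H2AFZ (ENSG00000164032) is the major gene for H2A.Z. Its RNA level was 443 FPKM in the control, then 400, 375, 147 and 62.0 FPKM after 2, 4, 6 and 19 h of nutlin-3a. The control was the highest library and every later one was lower, with the largest step between 4 and 6 h. The log2 change was -1.59 (SE 0.027) at 6 h and -2.84 (SE 0.039) at 19 h, 7.14-fold below the control, and 2.21% of tested genes lay lower.

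Ribosome density is used here for the Ribo-Seq level. Reads outside the coding sequence may be part of it, since the values had been scaled to the whole transcript while the study's methods describe coding reads, and this was not settled. The density of H2AFZ was 778, 674, 822, 218 and 80.7 FPKM in the same order. The first 3 libraries lay close together and the last 2 well below them. The log2 change of density was -1.83 (SE 0.035) at 6 h and -3.27 (SE 0.060) at 19 h, a 9.63-fold difference. Translational efficiency (TE) is the log2 ratio of Ribo-Seq to RNA-Seq level. The TE of H2AFZ changed by -0.43 at 19 h (95% counting interval -0.57 to -0.29), within the cut-off of 1.26.

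H2AFX (ENSG00000188486) encodes the variant that is phosphorylated by ATM, ATR and DNA-PK at breaks. Its RNA level was 125, 116, 88.1, 27.6 and 19.2 FPKM. Each library was lower than the one before, and the log2 change of -0.51 (SE 0.032) at 4 h passed its cut-off of 0.445. After the median of all tested genes at 4 h was taken away the difference was -0.43 and was not called. At 6 h the change was -2.18 (SE 0.046) and at 19 h -2.70 (SE 0.055), 6.50-fold below the control.

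The density of H2AFX ran differently at the early times. Its Ribo-Seq level was 203, 229, 242, 73.6 and 36.8 FPKM, so the libraries at 2 and 4 h lay above the control. Those differences were 0.18 (interval 0.11 to 0.24) and 0.26 (interval 0.20 to 0.32) on the log2 scale and were not called. Density was then called lower, at -1.46 (SE 0.048) at 6 h and -2.46 (SE 0.071) at 19 h. RNA was thus below the control at 4 h while density was not. The TE change of H2AFX was 0.77 (SE 0.044) at 4 h, past its cut-off of 0.461, and was 0.72 at 6 h, where the cut-off was 0.907. The study's methods describe no poly(A) selection for Ribo-Seq, so the assays may count different forms of H2AFX mRNA. The part of this in the TE of H2AFX was not tested.

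H2AFV (ENSG00000105968), the minor H2A.Z gene, had RNA levels of 128, 122, 117, 89.0 and 51.7 FPKM. The last library stood lowest, with a log2 change of -1.31 (SE 0.054) at 19 h, which was called, after -0.53 at 6 h, which was not. Its density was 447, 359, 460, 256 and 144 FPKM. The density change at 19 h was -1.64 (interval -1.74 to -1.53), just within the cut-off of 1.65.

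Within the H2A.Z pair the balance moved toward H2AFV, as H2AFZ was reduced more. The RNA of the pair summed to 570.7 FPKM in the control and 113.7 FPKM at 19 h. H2AFV made up 22.5% of that sum in the control (95% counting interval 21.7 to 23.3). After 2, 4, 6 and 19 h it made up 23.4%, 23.8%, 37.7% and 45.5% (43.5 to 47.5). The libraries to 4 h were alike and the last 2 stood apart. In Ribo-Seq the H2AFV share was 36.5% in the control and 64.0% at 19 h (61.6 to 66.4). Ribo-Seq values were scaled to the whole transcript, so the size of a share depends on how much of each transcript is coding, and only its difference between libraries is read here. At 19 h the change of H2AFZ minus that of H2AFV was -1.53 in RNA (SE 0.067, interval -1.66 to -1.40) and -1.63 in density (interval -1.79 to -1.47). The TE changes of the pair differed by -0.10 (interval -0.31 to 0.10).

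**Figure D2:**
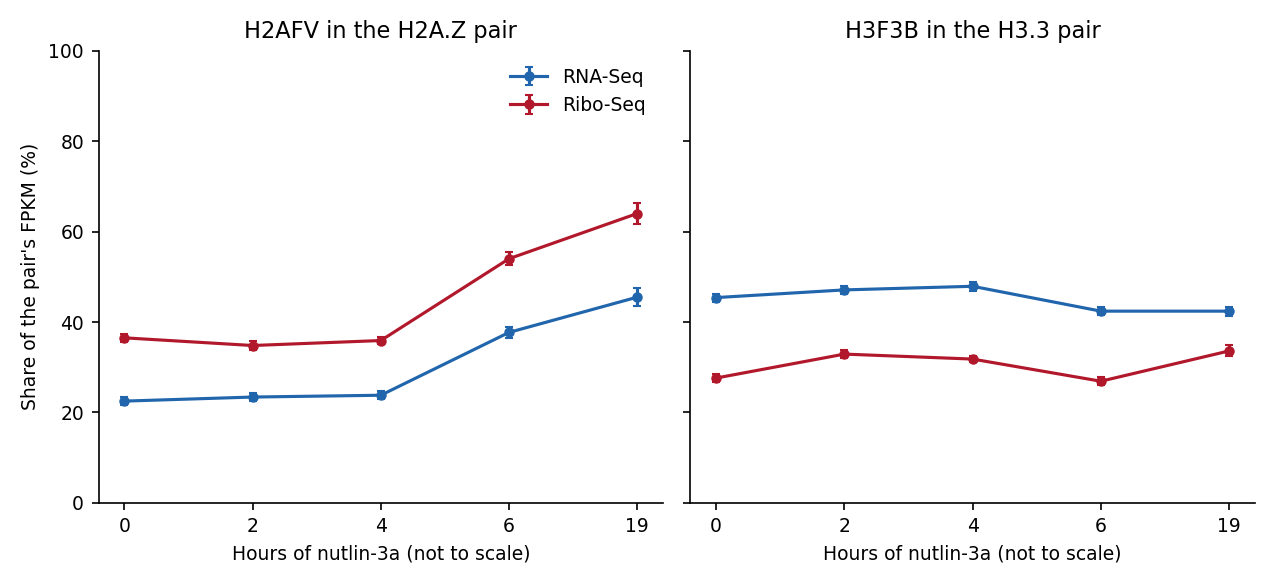
Share of each pair's summed FPKM held by H2AFV (left, of H2A.Z) and by H3F3B (right, of H3.3), in percent, at each time of nutlin-3a, with RNA-Seq in blue and Ribo-Seq in red. Bars are 95% counting intervals. The H2AFV share climbs after 4 h in both assays, from 22.5% to 45.5% in RNA, and the H3F3B share of RNA stays between 42.4% and 47.9%.

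The H3.3 genes encode the same protein from separate transcripts. Neither was called in RNA, density or TE at any time. H3F3A (ENSG00000163041) had RNA levels of 150, 134, 136, 140 and 125 FPKM, a log2 change of -0.26 (SE 0.031) at 19 h. H3F3B (ENSG00000132475) had 125, 119, 125, 103 and 92.0 FPKM, a change of -0.44 (SE 0.024). In both genes the lowest of the 5 libraries was that of 19 h, and the difference was several counting errors wide but within cut-offs of 0.850 and 0.833.

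In Ribo-Seq the gene with the larger difference was H3F3A, the other way round from RNA. The density of H3F3A was 394, 308, 424, 323 and 235 FPKM, a log2 change of -0.74 (SE 0.035) at 19 h. That of H3F3B was 150, 151, 198, 119 and 119 FPKM, a change of -0.33 (SE 0.036). The highest library was that of 4 h for both. The TE change of H3F3B exceeded that of H3F3A at 19 h by 0.59 (interval 0.46 to 0.71). With the 2 h library as baseline the 19 h TE changes were 0.028 for H3F3B and -0.292 for H3F3A. With the length trend removed they were 0.096 and -0.335. The H3F3B share of Ribo-Seq was 27.6% in the control and 32.9%, 31.8%, 26.9% and 33.6% after 2, 4, 6 and 19 h, with no steady direction. Only reads with a unique hit had been kept, so reads that either gene shares with a near copy would be lost from its level.

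H2AFY (ENSG00000113648) encodes macroH2A1 and was the flattest of the 7 in RNA and density at 19 h. Its RNA level was 43.7, 41.8, 41.9, 45.4 and 42.0 FPKM, and its density was 44.1, 43.4, 49.6, 43.5 and 40.6 FPKM. At 19 h the RNA difference was -0.06 (interval -0.13 to 0.02) and that of density -0.12 (interval -0.24 to 0.00). The RNA change of H2AFX minus that of H2AFY was -2.64 (SE 0.066, interval -2.77 to -2.51), and that of H2AFZ minus that of H2AFY was -2.78 (interval -2.89 to -2.67). The variants that replace H2A therefore ranged at 19 h from a nearly level RNA to a 7.14-fold fall.

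H1FX (ENSG00000184897) encodes a linker histone, which binds the DNA that enters and leaves the nucleosome. It had RNA levels of 56.2, 48.7, 53.9, 26.8 and 23.9 FPKM. Its libraries fell into a higher group to 4 h and a lower group from 6 h, with changes of -1.07 (SE 0.054) at 6 h and -1.24 (SE 0.057) at 19 h, both called. With the 2 h library as baseline they were -0.86 and -1.03 and were not called.

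The Ribo-Seq level of H1FX was 107, 129, 137, 74.6 and 60.4 FPKM. The 4 h library was the highest and the 19 h library the lowest. The density difference at 19 h was -0.82 (SE 0.064) and was not called.

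**Figure D3:**
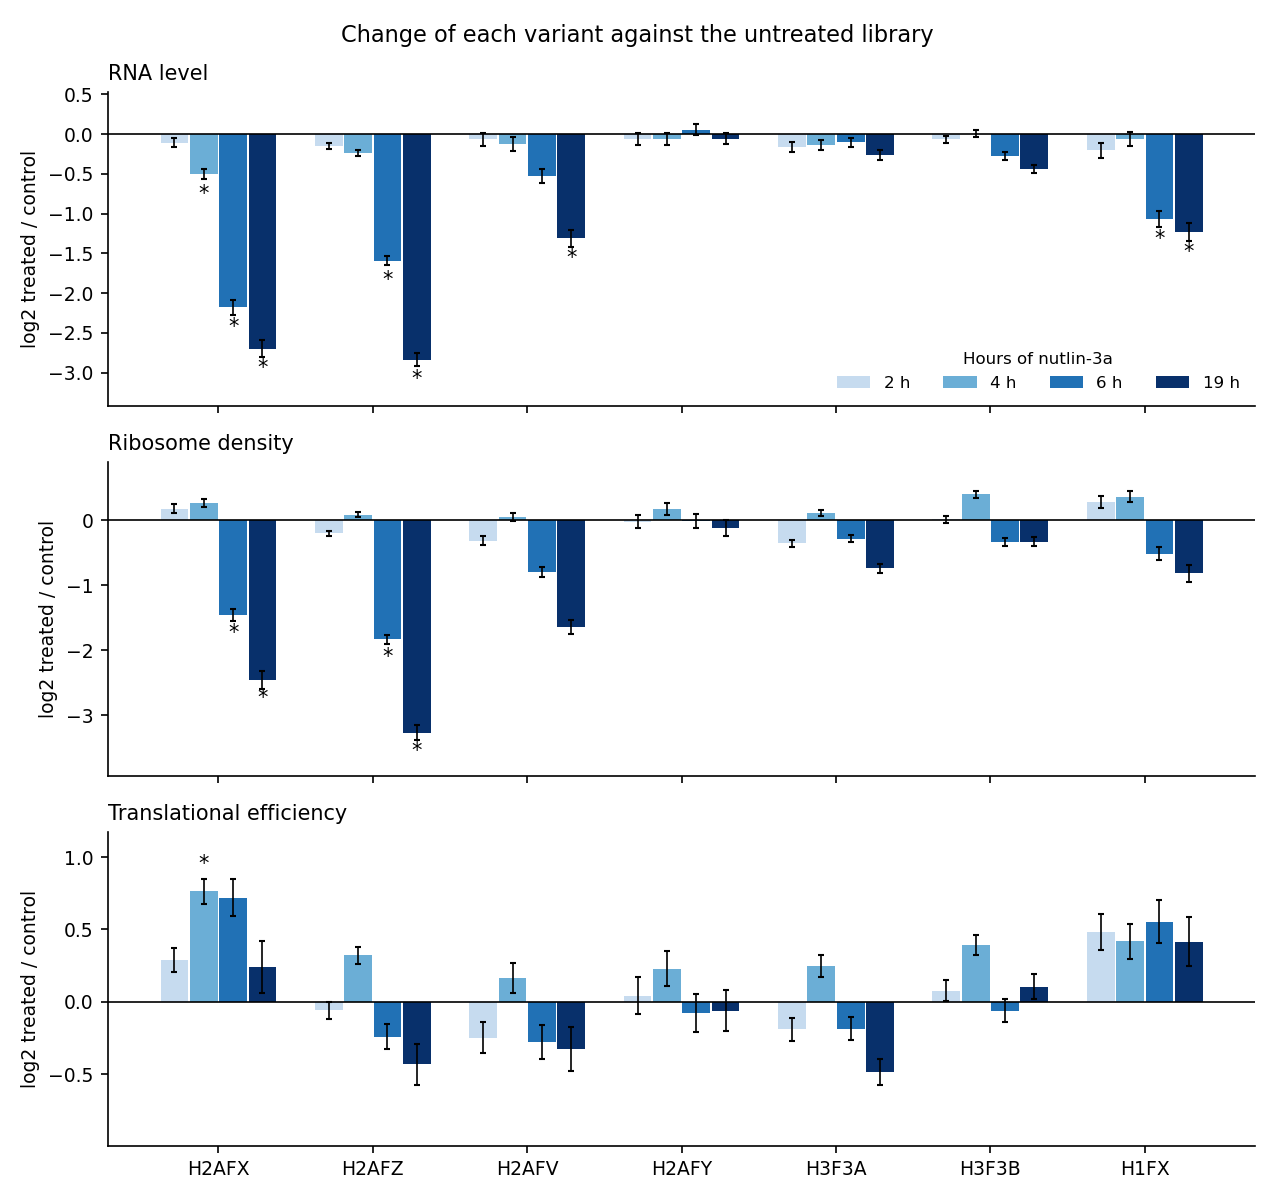
Log2 ratio of each treated library to the control for RNA level (top), ribosome density (middle) and translational efficiency (bottom) of the 7 variants, with shades of blue for 2, 4, 6 and 19 h. Bars carry 95% counting intervals and asterisks mark values past the cut-off that depends on level. Calls in RNA gather at 6 and 19 h in H2AFX, H2AFZ and H1FX, and calls in density are those of H2AFX and H2AFZ.

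Over the 7 variants, ribosome density was called lower for 2, H2AFX and H2AFZ, at 6 h and at 19 h, beside 4.69% and 5.37% of tested genes. With a fixed 2-fold cut-off 3 were lower at 19 h, the third being H2AFV, beside 14.9% of tested genes, so that a larger share of all genes passed. With the 2 h library as baseline, 4 were called lower at 19 h, with H2AFV (-1.32) and H1FX (-1.10) in addition. None was called lower at 2 h, beside 1.47%, or at 4 h, beside 1.27%. The density of all 7 was above the control at 4 h, with a median of 0.17 beside 0.10 over all tested genes, and below it at 19 h, with a median of -0.82 beside -0.19. Relative to those medians of tested genes, H2AFZ (-0.02) and H2AFV (-0.06) were not above the control at 4 h, and H2AFY (0.07) was not below it at 19 h.

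TE was called higher for 1 variant at 4 h, H2AFX, beside 12.9% of tested genes called in either direction, and no variant passed 2-fold, beside 0.998%. With the 2 h library as baseline the H2AFX value was 0.48 and was not called. The TE of all tested genes had a median of 0.18 at that time, and relative to it the value of H2AFX was 0.59. No TE change was called at 2, 6 or 19 h, where 7.36%, 7.13% and 7.94% of tested genes were. H1FX had a TE change from 0.42 to 0.55 at each of the 4 times, in no case past the cut-off. These values share the control libraries, and with the 2 h library as baseline they were -0.06, 0.07 and -0.07 at the later 3 times.

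The order of RNA levels turned over during treatment. In the control H2AFZ was first and H3F3A second, followed by H2AFV, H2AFX and H3F3B, whose neighbours in that order did not differ beyond counting error, and then by H1FX and H2AFY. At 19 h H3F3A was first and H3F3B second, before H2AFZ, H2AFV, H2AFY, H1FX and H2AFX, and each differed from the next beyond counting error. The H3.3 pair thus had 274.2 FPKM beside 570.7 for the H2A.Z pair in the control, and 217.0 beside 113.7 at 19 h.

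The variants also differed in when their RNA declined. Of the 19 h log2 change, 86.4% was present at 6 h for H1FX and 80.8% for H2AFX. The share was 56.1% for H2AFZ and 40.2% for H2AFV. From 6 to 19 h the RNA of H2AFX changed by a further -0.52 (interval -0.65 to -0.39) and that of H2AFZ by -1.25 (interval -1.33 to -1.16). H2AFX was therefore below H2AFZ in its change at 6 h, with H2AFZ higher by 0.59 (interval 0.49 to 0.69). At 19 h the signed difference was -0.14 (interval -0.27 to -0.004), close to no difference.

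The genes nearest to each variant in pattern were found among all tested genes by the root mean square difference over 8 values, the RNA and density changes at the 4 times. For H2AFX they were LMNB2, which encodes lamin B2, at 0.156, and POLA1, the catalytic subunit of DNA polymerase alpha, at 0.246. For H2AFZ they were STMN1, the microtubule regulator stathmin, at 0.156, and RNASEH2A, the catalytic subunit of ribonuclease H2, at 0.159. The nearest variant to H2AFX was H2AFZ at 0.419, further than these. The median tested gene lay at 1.56 from H2AFX and 1.71 from H2AFZ.

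H2AFV was nearest to PTMA (prothymosin alpha, 0.1) and TIMM10 (0.106). H1FX was nearest to the splicing factor SRSF2 (0.116) and ICMT (0.167). The flatter variants had closer neighbours. H3F3A was next to SNX6 (0.064) and SOD1 (0.068), H3F3B to PTTG1IP (0.079) and MTHFS (0.091), and H2AFY to MTMR14 (0.047) and CD2BP2 (0.048). Near a flat pattern many genes lie close, and the median distance from H2AFY was 0.356.

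The canonical histones give a measure of scale. The Ribo-Seq table held 40 genes with symbols of the replication-dependent clusters, and 39 had at least 5 FPKM in the control. This choice used the control alone, where genes that fall are high, while the filter for tested genes took any library. All 39 were over 2-fold lower at 6 h and at 19 h, beside 8.04% and 14.9% of tested genes. Their median density changes were -2.96 and -4.55, beside -0.02 and -0.19 over tested genes. None was over 2-fold lower at 2 h, beside 0.128%, or at 4 h, beside 0.527%. At 19 h the changes of the 39 spanned -6.62 to -1.51. The density changes of H2AFZ (-3.27), H2AFX (-2.46) and H2AFV (-1.64) were inside this span, and those of H3F3A, H3F3B, H2AFY and H1FX were outside it on the smaller side. The RNA-Seq table was not used for them, since 21 of its 28 such genes were below 1 FPKM in the control. RNA changes of the remaining genes were not computed, so this scale is one of ribosome density.

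Genes that place or read the variants were counted by list at 19 h. For H3.3 the deposition factors HIRA, CABIN1, ASF1A and DAXX were tested, and 0 of 4 were called in RNA, with changes from -0.25 to -0.05. Among all tested genes 6.71% were called in either direction, so 0 of 4 is close to that share. The median change of this list was -0.14, beside -0.07 over all tested genes. UBN1 and ATRX were below the filter in Ribo-Seq. Of the H2A.Z exchange factors 4 of 10 were lower in RNA, beside 5.10% of all tested genes, with a list median of -0.37. The largest falls were in YEATS4, a subunit shared by the SRCAP and TIP60 complexes, at -2.27 (SE 0.152), ANP32E, a chaperone that removes H2A.Z, at -1.85 (SE 0.049), and ACTL6A, an actin-related subunit, at -1.37 (SE 0.065). RUVBL2 was the fourth, while the ATPases SRCAP (-0.16) and EP400 (-0.22) were not called.

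Over all tested genes 5.10% were called lower in RNA at 19 h, with a median of -0.07, and 5.37% in density, with a median of -0.19. Of the genes that phosphorylate, dephosphorylate or read H2A.X, 1 of 6 was lower in RNA. It was PRKDC, the catalytic subunit of DNA-PK, at -1.30 (SE 0.019). Its density was not lower (0.31) and its TE was called higher, by 1.61. The density of PRKDC was 10.6, 30.1, 12.6, 15.6 and 13.2 FPKM, highest at 2 h. The TE change of all tested genes at 19 h rose by 0.15 per doubling of transcript length. The part of length in the PRKDC value was not tested. The median RNA change over these 6 genes was -0.83. The largest rise was in PPM1D, a phosphatase that the paper lists among known p53 targets. Its RNA was 4.15, 8.32, 14.5, 11.4 and 12.1 FPKM, and its 19 h change of 1.54 was not called. In the control it was under 5 FPKM in both assays, so it passed the filter only through treated libraries. At 2, 4 and 6 h, 1 gene of this list was called higher in RNA, beside 3.36%, 3.51% and 1.63% of tested genes. Called lower were 0, 0 and 2, beside 0.741%, 2.88% and 4.78%. The list of replicative and general chaperones also held TLK2, a kinase, and IPO4, an importin, neither called in RNA or density. Of all 11 tested genes on it, 7 were lower in RNA, with a median of -1.43, and 9 in density, with a median of -1.75. The largest RNA falls after the floor were in HJURP, the chaperone of CENP-A, from 39.8 to 0.780 FPKM, ASF1B, from 28.4 to 0.429 FPKM, and CHAF1B, a subunit of chromatin assembly factor 1, from 17.1 to 1.09 FPKM. The 19 h values of HJURP and ASF1B are under the floor of 1 FPKM, so the size and order of their changes are set by the floor and the control level. CENPA, the centromeric variant of H3 and not one of the listed variants, had RNA levels of 16.0, 13.5, 11.2, 1.63 and 0.185 FPKM. The last is under the floor of 1 FPKM, so its log2 change of -4.00 is set by the floor.

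**Figure D4:**
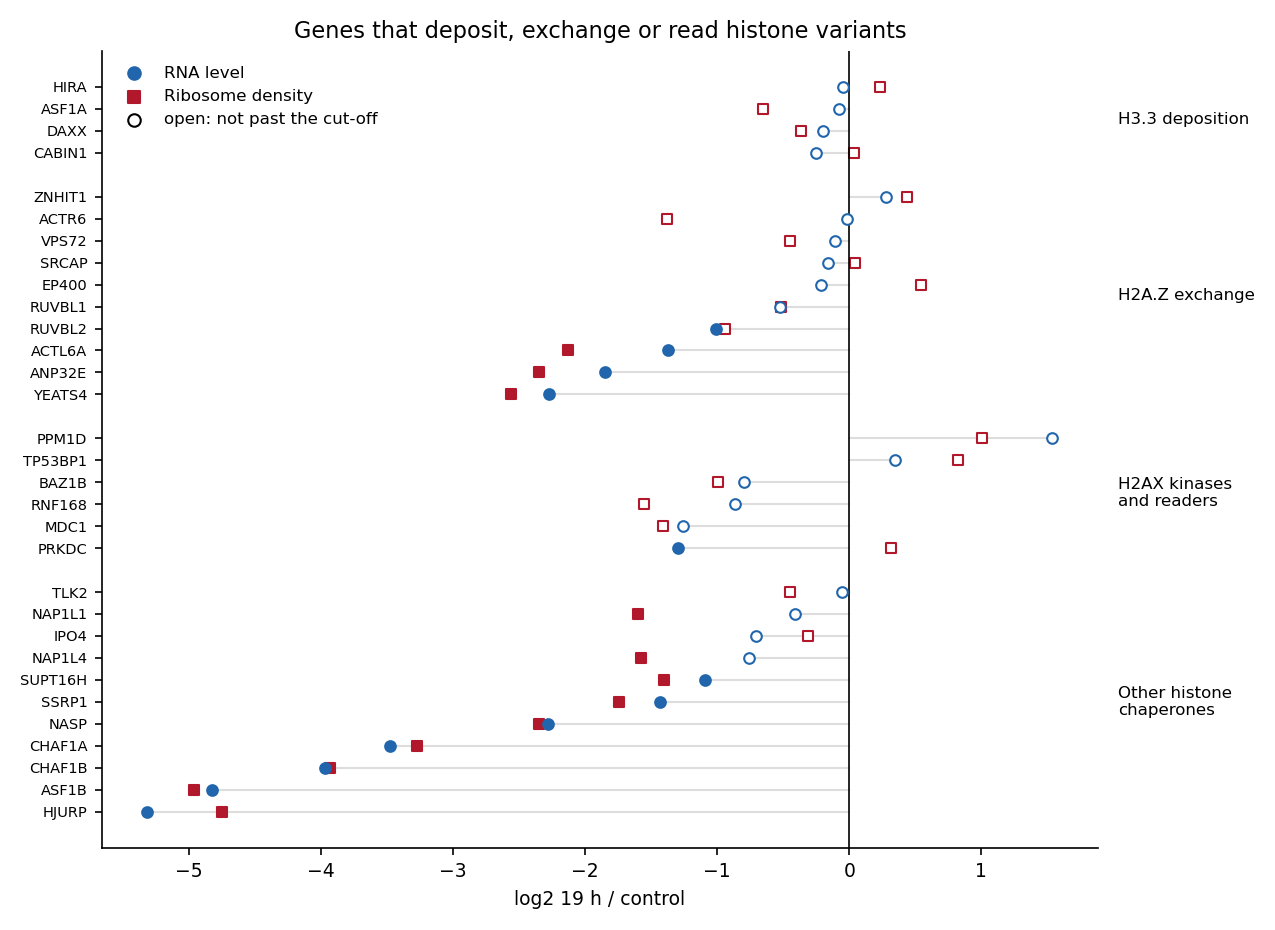
Log2 ratio of 19 h to control in RNA level (blue circles) and ribosome density (red squares) for tested genes of 4 lists. These are H3.3 deposition, H2A.Z exchange, H2A.X kinases and readers with the phosphatase PPM1D, and other histone chaperones with TLK2 and IPO4. Filled symbols passed the cut-off that depends on level, with values floored at 1 FPKM. All 4 H3.3 deposition genes are open in both measures, where 6.71% (RNA) and 7.28% (density) of tested genes were called in either direction. HJURP, ASF1B and CHAF1B lie furthest to the left.

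Transcript length may enter the density values, since both tables had been scaled to the same whole transcript. The 7 variants were 752 to 2789 nucleotides long, beside a median of 2601 over tested genes, and the density change of all tested genes at 19 h rose by 0.16 per doubling of length. With this trend removed, the 19 h density change was -3.04 for H2AFZ, -2.35 for H2AFX and -1.34 for H2AFV, and their calls were as before. The 19 h TE difference of H2AFZ was then -0.22 in place of -0.43, and that of H2AFV -0.06 in place of -0.33. The study's methods compare each condition with a control of its own sequencing run. Runs were not used here, as they are missing from the sample labels, and their part in these values was not tested.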

How the data were processed

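RNA-Seq of poly(A) RNA and Ribo-Seq were available for 5 libraries each. As the paper's methods describe it, reads had been mapped by the authors with Bowtie to 1 coding transcript per gene (hg19 in the submitters' processing notes), and unique hits were kept. The values the authors deposited are FPKM, with 3 decimals, in 1 table per assay, and every column was used. The table whose name holds both assays was read as RNA-Seq, and canonical histones were low in it.

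FPKM values are whole reads divided by length and total, so reads and transcript lengths were recovered from their spacing. The same length was found in both tables for 11241 of 11258 genes (99.8%). The counting SE of a log2 change is the square root of the summed reciprocal reads over the natural log of 2, and 95% intervals take that error as normal. PCR copies cannot be seen, so errors cover counting only. Totals were 23845600 to 27554300 (RNA-Seq) and 7744900 to 14460700 (Ribo-Seq) reads.

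Log2 ratios to the control of the same assay were taken after a floor of 1 FPKM, over 7015 genes that reached 5 FPKM in some library of either assay and in some library of the other. Calls used 1.75 local standard deviations in windows of 501 genes, after the study's methods, or 2-fold. No p-value was computed, since each group held 1 library. Recovery and calls were tested on simulated data. Of the listed members, 1 is not reported here. The members and lists were chosen with earlier results of these data known. The text names the other members, up to 3 called genes per list and direction, and the 2 genes nearest to each member, and names other genes of a list for context. HIRA, CABIN1, ASF1A, DAXX, UBN1, ATRX, SRCAP, EP400, RUVBL2, PPM1D, TLK2 and IPO4 were named after their values were seen. Alternatives were a pseudocount of 1 FPKM without floor, no filter, centring on the median, the 2 h library as baseline, a length trend removed, 2-fold, and shares by reads. Python 3.11.15, numpy 2.4.6, pandas 2.3.3 and scipy 1.17.1 were used.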

Additional observations from a re-analysis of the deposited data

Results flagged for a closer look

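The ribosome density of H2AFX lay above the control at 2 h, by 0.177 on the log2 scale, and at 4 h, by 0.258, although it was called lower at 6 h and 19 h. Both early values had 95% counting intervals above 0 and stayed above 0 when the median of all tested genes was taken away. The RNA of H2AFX was below the control at both times. That RNA was poly(A) selected, which leaves out the stem-loop form, and the part of this was not tested. The difference between early and late times was not tested, since each time had 1 library.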

How the results depend on the processing

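No paired analysis was possible because every group held 1 library and the labels carry no replicate numbers that groups share. The values have no replicate check, and leaving out a library would leave no group to compare. The pseudocount without floor and the missing filter on low values moved no count of called variants. The variants lay well above the floor and the filter in every library, so these settings could hardly move a call and are a weak check. RNA of H2AFX at 4 h was the only call at that time, and the count was 0 after centring on the median of tested genes and 0 with a 2-fold cut-off. Of TE at 4 h, where 1 variant was called higher, the count was 0 with the 2 h library as baseline and 0 with a 2-fold cut-off. With the 2 h library as baseline, 3 variants in place of 4 were called lower in RNA at 19 h (H2AFX, H2AFZ and H2AFV), and 4 in place of 2 were called lower in density (H2AFV and H1FX in addition). With the length trend removed, 1 variant was called higher in TE at 2 h (H1FX, 0.56). Counted by reads and not per length, the H2AFV share of H2A.Z was 18.2% in the control and 39.1% at 19 h in RNA, and 30.6% and 57.8% in Ribo-Seq. The H3F3B share of H3.3 by reads was 63.2% and 60.3% in RNA, and 44.1% and 51.1% in Ribo-Seq. Shares by reads and per length differ only by fixed transcript lengths, so the direction of a difference could not change. It is therefore no check on that direction. The cause of these shifts was not tested beyond what each alternative changes. The falls of H2AFX and H2AFZ at 6 and 19 h in RNA and density were called under each of the alternatives run, the H2AFV fall in RNA at 19 h likewise. Among these alternatives the pseudocount and the missing filter are weak checks, as said above.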
